A study of Macaca mulatta with 8 samples.

Results

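The genes described here are the 8 contactins and contactin-associated proteins CNTN1, CNTN3, CNTN4, CNTN5, CNTN6, CNTNAP2, CNTNAP4 and CNTNAP5, and all 8 are among the 21748 genes of the deposited matrix. They were taken by symbol from the gene table, not by a threshold on their levels. Single nuclei of male rhesus macaque brain were sequenced with 10x Genomics 3' chemistry v3. The sevoflurane group was 1 animal, anaesthetised with about 2.5 to 3% sevoflurane for 4 hours near postnatal day 7 and again at 14 and 28 days (the labels do not say whether these are ages or intervals), and its tissue was divided into 4 samples. The control group was a pool of 2 animals, also divided into 4 samples. The tissue label says hippocampus while the protocol text names amygdala, and the age at collection is not given in the sources used here. The samples of a group are portions of 1 pool, and the sevoflurane group is 1 animal. All 8 libraries lie in 1 matrix, told apart by a suffix on each barcode, and no source used here ties a suffix to a sample. Sevoflurane and control were therefore not compared, and the results below describe cell classes. With no way to divide the matrix by sample, no p-value is given.

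Contactins are immunoglobulin-domain adhesion proteins held to the outer membrane by a lipid anchor, and contactin-associated proteins (CNTNAPs, also called CASPRs) are transmembrane proteins of the neurexin superfamily that bind contactins and other partners. CNTN1 pairs with CNTNAP1 where myelin loops attach to the axon beside the node of Ranvier, and CNTNAP2 pairs with CNTN2 in the neighbouring juxtaparanode, where it gathers Kv1 potassium channels. Other members act in neurite growth and in the choice of synaptic partners, and several have been studied in autism and other neurodevelopmental conditions.

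The matrix held 331133661 UMIs (unique molecular identifiers, each counting 1 captured RNA molecule) in 59749 barcodes, 35806547 to 47007082 per library. After filters, 54644 nuclei fell into 46 clusters, of which 41 were placed in 19 classes by marker genes and 5, with 5406 nuclei, stayed unnamed. Neurons made up 28395 nuclei (52.0%) and non-neuronal cells 20843 (38.1%). The libraries stood apart from each other. Of 20 excitatory clusters, 7 took over 90% of their nuclei from libraries 1 to 4, 11 took over 90% from libraries 5 to 8, and 2 were mixed. Median UMIs per nucleus were 3189 to 3426 in libraries 1 to 4 and 5730 to 5831 in libraries 5 to 8. In addition, 429 barcode sequences occurred in 2 or more libraries. The main results on the 8 genes are therefore given with their values or range over libraries, or with the number of libraries that show them, and partner genes as sums only. All of the class's own markers found by symbol in the matrix were higher in it than in other nuclei for 11 of 18 classes. Some listed markers were not found, so that oligodendrocytes, for example, had 8 of 10. The pyramidal-like class had 5 of 10 such markers, led by FIBCD1, the granule-like class 6 of 8 and the immature class 5 of 7. The immature cluster had no immature-neuron marker among its 10 leading genes, which included PROX1, a granule marker. Levels below are in CPM, the summed UMI counts of a class's nuclei scaled to a common total, and in the PVALB-LHX6 class PVALB itself stood at 4.64 CPM and LHX6 at 134 CPM. Ratios compare such levels, and intervals are exact 95% intervals that cover counting error only. CPM is not corrected for gene length, so levels are compared between classes and not between genes.

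The 8 genes did not share 1 pattern. CNTN1 was highest in oligodendrocytes, CNTN3 in excitatory neurons without a subtype name, CNTN4, CNTN6 and CNTNAP2 in VIP interneurons, CNTN5 in RELN-ADARB2 interneurons, CNTNAP4 in LAMP5-LHX6 interneurons and CNTNAP5 in PVALB-LHX6 interneurons. So 6 of 8 genes had their highest class among interneurons, and the share of all genes that did so was not computed. The highest class was above the next one in every library with 50 or more nuclei of both for CNTN1 (1481 CPM, with oligodendrocyte precursors next at 894), CNTN3 (306 CPM, with SST interneurons next at 274) and CNTNAP5 (1269 CPM, with VIP interneurons next at 990). In library 3, though, CNTN3 was at 359 CPM in granule-like neurons and at 321 CPM in excitatory neurons without a subtype name. The CNTNAP5 level of PVALB-LHX6 interneurons joined 2680 CPM in cluster 42, 281 nuclei, and 908 CPM in cluster 18, 1082 nuclei, which is below the VIP level. The other 5 did not differ from their runner-up in all libraries: CNTN4 was higher in VIP interneurons than in FOXP2 excitatory neurons in 4 of 8 libraries (587 and 577 CPM), and CNTNAP4 was higher in LAMP5-LHX6 than in PVALB-LHX6 interneurons in 4 of 5 (1003 and 957 CPM).

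At the low end the genes parted too. CNTNAP4 was lowest in pyramidal-like (9.87 CPM) and granule-like neurons (17.3 CPM), below every glial class in the sum. CNTN1 was lowest in endothelial cells (134 CPM), CNTN3 and CNTNAP2 in newly formed oligodendrocytes (26.0 and 322 CPM), CNTN4 and CNTN6 in ependymal cells (39.8 and 6.42 CPM), and CNTN5 and CNTNAP5 in mature oligodendrocytes (54.9 and 76.1 CPM).

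**Figure D1:**
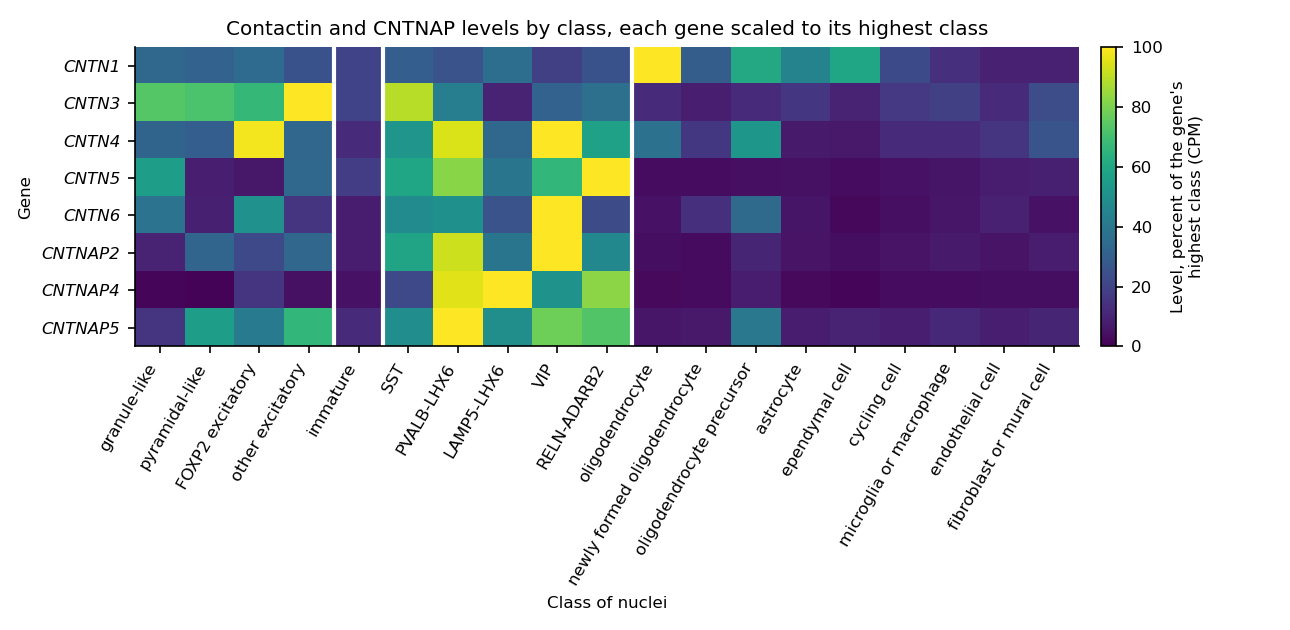
Level of each gene (rows) in 19 classes of nuclei (columns), as percent of that gene's highest class in CPM. Excitatory classes stand left, then immature neurons, interneurons and non-neuronal classes. CNTN1 reaches 100% in oligodendrocytes, CNTN3 in the other excitatory neurons and each of the other rows in an interneuron column.

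Neurons were first set against non-neuronal nuclei. The 3 CNTNAP genes, CNTN3 and CNTN5 were higher in neurons, and CNTN1 alone was higher in non-neuronal nuclei. A gene was called when its summed CPM differed by 2-fold or more, with 10 CPM or more on the higher side and the same sign in all libraries that held 50 nuclei of each class. By this rule 5 of 8 members were higher in neurons, where 11.6% of all 10400 genes measured were, and 1 of 8 was higher in non-neuronal nuclei, where 18.9% of all genes were. The median log2 ratio, neurons over non-neuronal nuclei, was 2.16 for the 8 members and -0.23 for all genes measured.

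CNTN5, a contactin studied in mice for synapse formation in the auditory brainstem, reached 617 CPM in neurons, against 68.2 CPM in non-neuronal nuclei (9.05-fold, 8.76 to 9.34). CNTN3, which promotes neurite outgrowth in rat neurons, reached 243 CPM in neurons, against 40.5 CPM in non-neuronal nuclei (5.99-fold, 5.75 to 6.25). CNTNAP2 was at 3726 CPM in neurons, against 571 CPM in non-neuronal nuclei (6.53-fold), CNTNAP4 at 162 CPM in neurons, against 34.9 CPM elsewhere (4.63-fold), and CNTNAP5 at 733 CPM, against 170 CPM (4.32-fold). In each of the 8 libraries all of these genes, and CNTNAP2, were higher in neurons.

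CNTN1 ran the other way, with 412 CPM in neurons and 896 CPM in non-neuronal nuclei, 2.18-fold higher in the non-neuronal nuclei (2.15 to 2.20). By library its log2 ratio ranged from -1.17 to -0.07, negative in 8 of 8 libraries. Libraries 3 and 4, at -1.17 and -1.14, lay farthest from 0. The call rests on how the libraries are combined: the log2 ratio was -0.69 when libraries were weighted equally, -0.26 in libraries 5 to 8 alone and -0.89 with TMM scaling, a scaling by the trimmed mean of gene ratios that put the common shift of all genes at -0.23. CNTN4 (261 CPM in neurons, 157 CPM in non-neuronal nuclei) missed the 2-fold line. CNTN6 passed it in the sum, with 73.3 CPM in neurons and 31.7 CPM in non-neuronal nuclei (2.31-fold), but not in every library. Its log2 ratio was 1.44 in libraries 1 to 4 alone and 0.06 in libraries 5 to 8 alone.

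The partner lists hold genes known to bind contactins or CNTNAPs or to share their junctions. Among their 31 measured genes, 8 were called in neurons and 7 in non-neuronal nuclei. SPTBN4, the spectrin that anchors channels at nodes and axon initial segments, led in neurons (150 CPM, and 11.2 CPM in non-neuronal nuclei), followed by KCNAB2, a Kv1 channel beta subunit (139 and 22.6 CPM). NOTCH1, a receptor that contactins can bind, and TNC, an extracellular matrix ligand, led in non-neuronal nuclei (NOTCH1 1.59 CPM in neurons and 50.4 CPM in non-neuronal nuclei, TNC 13.2 and 209 CPM). The juxtaparanode potassium channel list had 5 of 7 measured genes higher in neurons and none higher in non-neuronal nuclei.

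Excitatory neurons were then set against inhibitory neurons. No member was higher in excitatory neurons by the rule, and 4 of 8 were higher in inhibitory neurons: CNTNAP4, CNTN5, CNTN6 and CNTNAP2. Of all 9456 genes measured, 6.13% were called in excitatory neurons and 6.44% in inhibitory ones. The median log2 ratio, excitatory over inhibitory, was -1.05 for the members and -0.11 for all genes.

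CNTNAP4, which in mice is needed for normal GABA release by interneurons, had the largest ratio of the 8. Its level in excitatory neurons was 37.7 to 65.6 CPM over the 8 libraries (median 45.8), and in inhibitory neurons 599 to 705 CPM (median 655). The 2 ranges were far apart, and the level was 14.1-fold higher in inhibitory neurons (13.8 to 14.4). The excess was 11.5-fold in libraries 1 to 4 alone and 17.1-fold in libraries 5 to 8 alone.

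CNTN5 stood at 345 to 530 CPM in excitatory neurons (median 509) and 977 to 1393 CPM in inhibitory neurons (median 1227), 2.58-fold higher in the inhibitory ones (2.55 to 2.60). CNTN6, a contactin that acts as a Notch ligand in rodent oligodendrocyte development, stood at 49.6 to 76.5 CPM in excitatory neurons and 116 to 189 CPM in inhibitory neurons, a 2.48-fold excess in inhibitory neurons (2.40 to 2.56). CNTNAP2 stood at 2630 to 3267 CPM in excitatory neurons and 5795 to 7873 CPM in inhibitory neurons, a 2.39-fold excess in inhibitory neurons (2.38 to 2.40). For none of these 3 genes did the library ranges of the 2 classes overlap, and the share of all genes without such overlap was not computed.

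The other 4 members stayed under 2-fold in every library. CNTN3 leaned to excitatory neurons in 8 of 8 libraries (270 CPM, and 146 CPM in inhibitory neurons, 1.85-fold), and CNTN4 to inhibitory neurons in 8 of 8 (230 CPM in excitatory and 414 CPM in inhibitory neurons). CNTN1 and CNTNAP5 differed by 1.08-fold and, towards inhibitory neurons, 1.30-fold. Of 30 measured partner genes, 2 were higher in excitatory neurons, GPR37 (22.5 CPM, and 4.21 CPM in inhibitory neurons) and APLP1 (29.5 and 14.4 CPM), and none in inhibitory neurons.

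**Figure D2:**
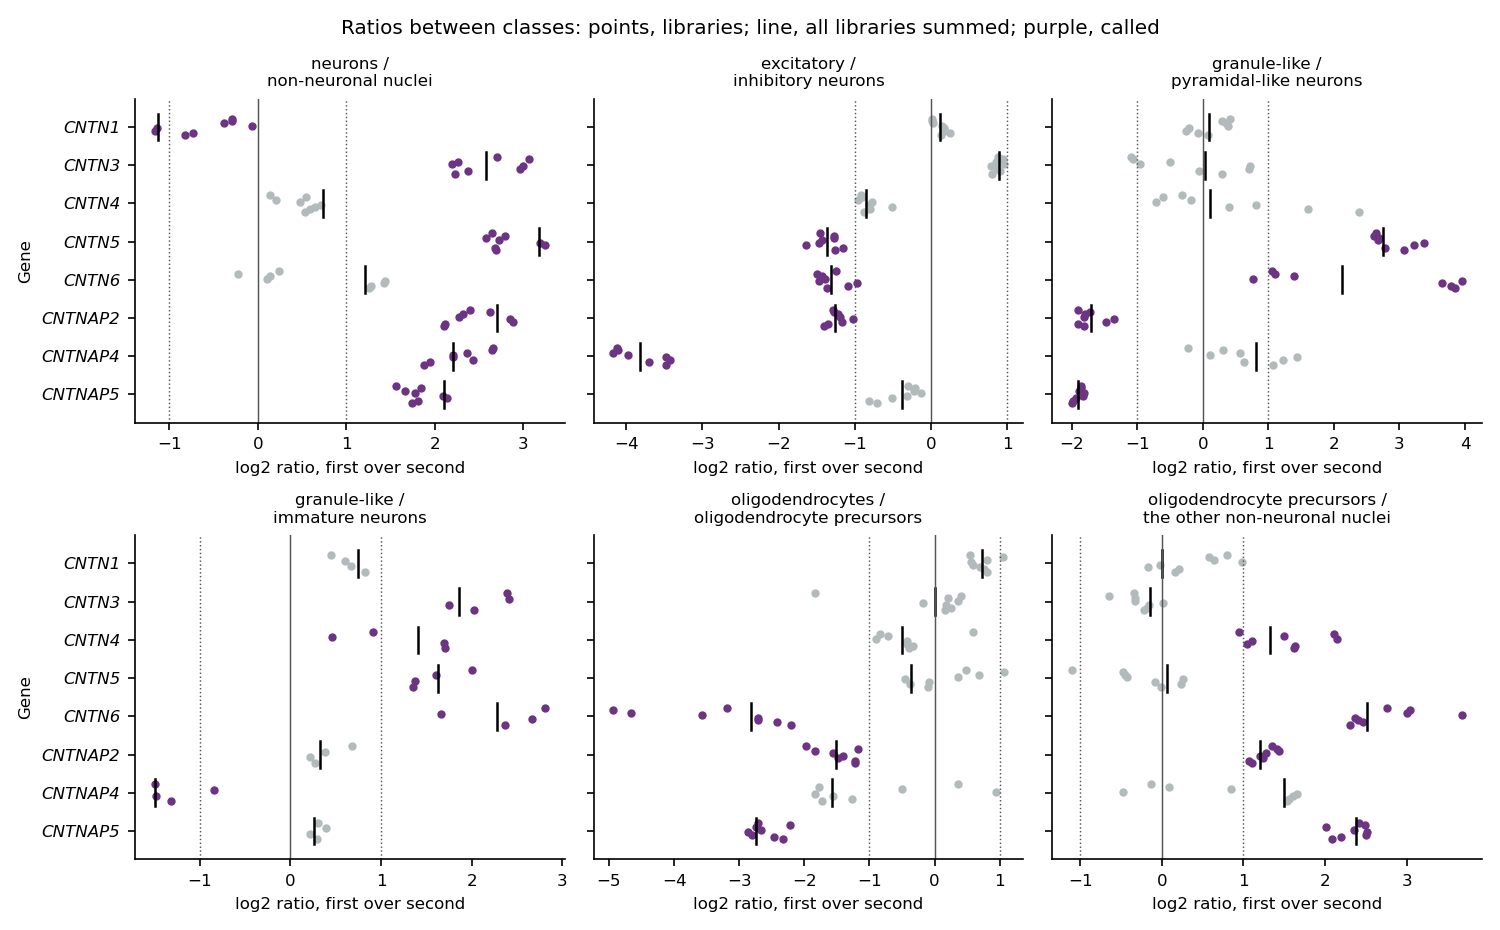
The log2 ratio of CPM for each gene (rows) in 6 comparisons, first-named class over second, with 1 point per library holding at least 50 nuclei of both, a line for the summed libraries and dotted lines at 2-fold. Purple marks called genes: CNTNAP4 lies far to the left for excitatory against inhibitory neurons, and CNTN6 splits into separate groups of libraries for granule-like against pyramidal-like neurons.

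Within excitatory neurons, the granule-like class (the dentate gyrus type) was set against the pyramidal-like class. CNTN5 and CNTN6 were higher in granule-like neurons, and CNTNAP2 and CNTNAP5 were higher in pyramidal-like neurons. These are 2 of 8 members in each direction, where 5.69% of all 9266 genes measured were called in granule-like neurons and 5.74% were called in the pyramidal-like class. The granule-like nuclei lay in cluster 6 for libraries 1 to 4 and cluster 20 for libraries 5 to 8, and the pyramidal-like nuclei in cluster 13 for libraries 1 to 4 and cluster 10 for libraries 5 to 8.

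CNTNAP5 had the most even ratio over libraries. It stood at 174 to 203 CPM in granule-like neurons (median 188) and at 650 to 745 CPM in pyramidal-like neurons (median 708), a 3.73-fold excess in pyramidal-like neurons (3.61 to 3.86). CNTNAP2 was at 980 to 1130 CPM in granule-like neurons and 2822 to 3748 CPM in pyramidal-like neurons, with library log2 ratios from -1.91 to -1.36. CNTNAP2 was lower in granule-like neurons than in FOXP2 excitatory neurons (2271 CPM) and the other excitatory neurons (3395 CPM) as well.

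CNTN6 was at 67.3 to 137 CPM in granule-like neurons, where the values of libraries 1 to 4 and 5 to 8 overlapped. In pyramidal-like neurons it was at 8.43, 9.89, 5.36 and 5.24 CPM in libraries 1 to 4 and at 46.8, 40.2, 50.2 and 47.7 CPM in libraries 5 to 8. The fold in granule-like over pyramidal-like neurons was 4.34 in the sum (4.01 to 4.70), 17.0 in libraries 1 to 4 alone and 2.11 in libraries 5 to 8 alone. CNTN4, which in mice guides olfactory axons and binds the amyloid precursor protein APP, showed the same split without a call. Its pyramidal-like level was 37.6, 61.9, 123 and 104 CPM in libraries 1 to 4 and 296, 226, 287 and 283 CPM in libraries 5 to 8, while its granule-like level stayed at 163 to 227 CPM in all 8. The direction of CNTN4 therefore turned between libraries, with log2 ratios from -0.72 to 2.38.

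CNTN3 also turned. Its granule-like level was 226, 220, 359 and 364 CPM in libraries 1 to 4 and 123, 137, 107 and 112 CPM in libraries 5 to 8, against 185 to 240 CPM in pyramidal-like neurons. The classes of libraries 1 to 4 and of libraries 5 to 8 lie in different clusters, and the part of this in these splits was not tested. CNTN5 did not turn: it stood at 801 to 1201 CPM in granule-like neurons and 93.9 to 193 CPM in pyramidal-like neurons, and the ranges did not overlap. Of 29 measured partner genes, 3 were higher in each class, led by PTPRZ1, a receptor phosphatase that binds CNTN1, in granule-like neurons (560 CPM, and 73.6 CPM in pyramidal-like neurons), LGI1 in granule-like neurons (213 and 69.5 CPM), and GPR37 (19.6 and 46.4 CPM) and KCNAB1 (330 and 713 CPM) in pyramidal-like neurons.

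FOXP2 excitatory neurons had the most CNTN4 of the excitatory classes, at 577 CPM and 531 to 688 CPM by library. They had the least CNTN5 in the sum, 107 CPM, but the order turned by library: they stood at 134 to 199 CPM in libraries 1 to 4, above the pyramidal-like level of 93.9 to 117 CPM there, and at 54.4 to 70.3 CPM in libraries 5 to 8, below 179 to 193 CPM. Their CNTNAP5 level was 923, 935, 788 and 865 CPM in libraries 1 to 4 and 300, 276, 280 and 319 CPM in libraries 5 to 8, so that the 2 sets of libraries did not overlap. The nuclei of libraries 5 to 8 lay mostly in cluster 17, at 297 CPM of CNTNAP5. Those of libraries 1 to 4 lay mostly in cluster 24, 754 nuclei at 449 CPM, and cluster 44, 119 nuclei at 2466 CPM, which alone lay above the class level of these libraries. Cluster 44 had a doublet score of 0.48, where 0.5 or more could leave a cluster unnamed. It also had the highest median UMIs of the clusters, 12643. The other excitatory neurons, 11015 nuclei in 13 clusters, had the most CNTN3 in the sum, at 306 CPM and 272 to 378 CPM by library. They were higher than SST interneurons in 8 of 8 libraries. In library 3, however, they stood at 321 CPM, below granule-like neurons at 359 CPM.

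**Figure D3:**
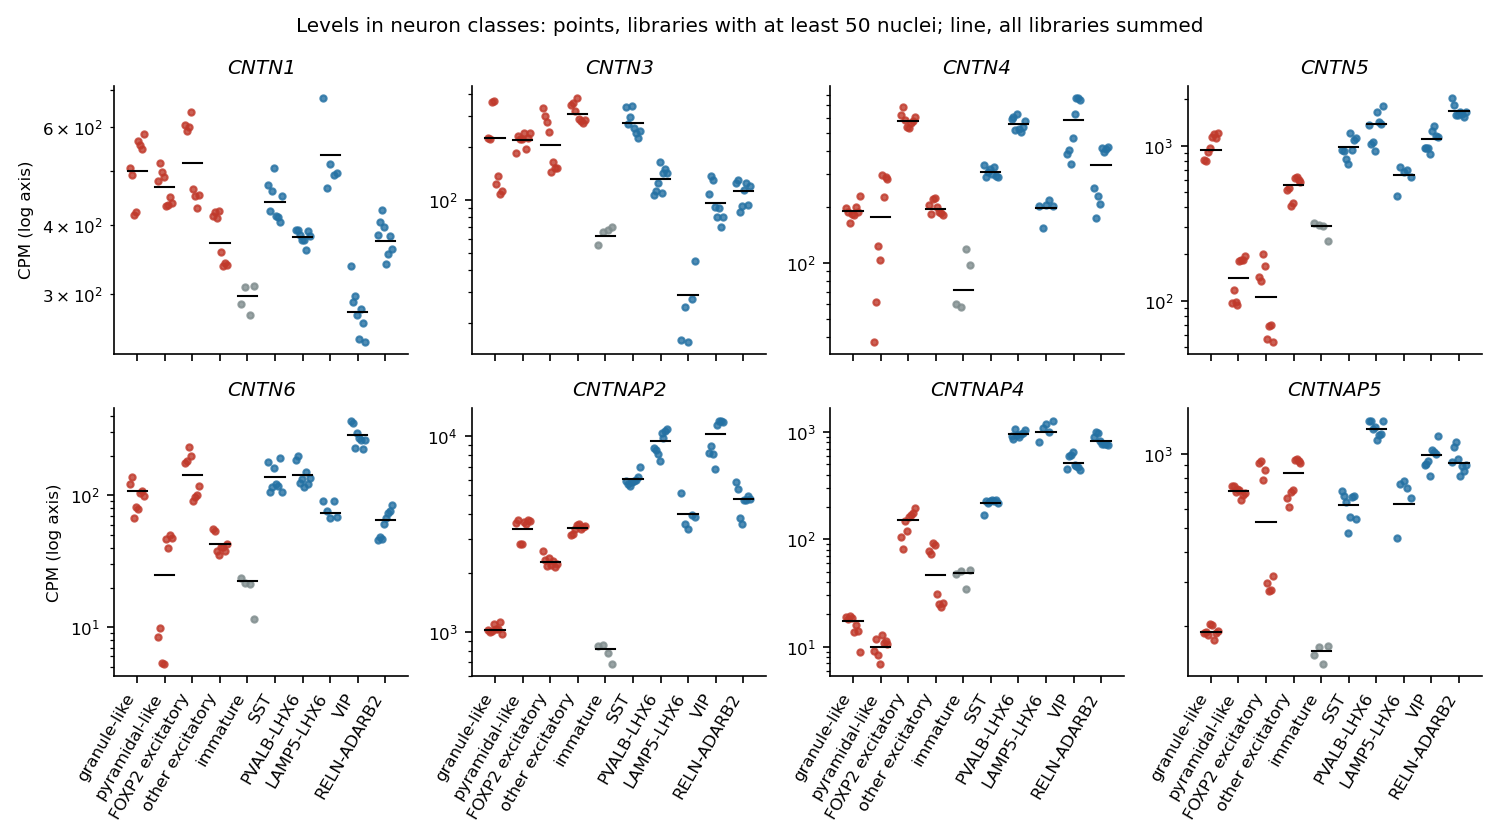
Level in CPM (log axes) of each gene in the 10 neuron classes, with 1 point per library holding at least 50 nuclei of the class and a line for the summed libraries. Red marks excitatory classes, grey immature neurons and blue interneurons. CNTNAP4 is under 20 CPM in granule-like and pyramidal-like neurons and near 1000 CPM in LAMP5-LHX6 and PVALB-LHX6 interneurons.

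Single clusters carried far more of some members than their class. CNTNAP2 was at 15871 CPM in cluster 43, a cluster of 127 excitatory nuclei led by DPP4, SMCO4 and COL6A5 and seen in libraries 5 to 8. It was at 1907 to 6295 CPM in the other 12 clusters without a subtype name. The marker score of cluster 43 for the FOXP2 type was 0.75, near those of FOXP2 clusters 17 (0.78) and 24 (0.74). It was left without that name because no FOXP2-type marker was among its 10 leading genes. CNTNAP5 reached 3099 CPM in cluster 37 (led by COL4A4 and CCDC192), 2466 CPM in FOXP2 cluster 44 and 1985 CPM in cluster 23 (led by TSHZ2, STAC and GRB14), and stood at 83.6 CPM in cluster 43. CNTN5 peaked among excitatory clusters in the same clusters 23 and 37, at 2083 and 1669 CPM, and was itself among the 10 leading genes of cluster 23. CNTN3 was highest in cluster 44, a FOXP2 cluster led by NDST4, NTS and GFRA1 with a doublet score of 0.48, at 762 CPM. It was next in cluster 27, led by ABI3BP, SEMA3D and ADCYAP1, at 759 CPM, and was at 15.1 CPM in cluster 43. Clusters 43, 37, 23 and 27 come almost wholly from libraries 5 to 8 and cluster 44 from libraries 1 to 4.

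Granule-like neurons were also set against immature neurons, which 4 libraries, 1 to 4, held in number. All 4 contactins other than CNTN1 were higher in granule-like neurons, and CNTNAP4 was higher in immature neurons. That is 4 of 8 members higher in granule-like neurons, where 8.29% of all 10034 genes were, and 1 of 8 in immature neurons, where 17.1% were. CNTN6 was at 121, 137, 67.3 and 81.6 CPM in granule-like neurons and 23.5, 21.6, 21.3 and 11.6 CPM in immature neurons of the same libraries (4.86-fold in the sum, 3.94 to 6.05). CNTN3 was at 226, 220, 359 and 364 CPM in granule-like neurons and 55.3, 65.6, 67.7 and 69.8 CPM in immature neurons (3.62-fold, 3.19 to 4.12). CNTN5 was 3.09-fold higher (2.92 to 3.27) and CNTN4 2.66-fold higher (2.36 to 3.01) in granule-like neurons. The folds and the single levels given for this comparison are sums over all 8 libraries. Their granule-like side therefore also holds libraries 5 to 8, where CNTN3 was at 107 to 137 CPM.

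CNTNAP4 was low in both classes, with 17.3 CPM in granule-like and 48.8 CPM in immature neurons, 2.82-fold higher in the immature (2.37 to 3.36). CNTNAP2 (1031 CPM in granule-like, 822 CPM in immature neurons) and CNTNAP5 (189 and 157 CPM) stayed under 2-fold. CNTN1 was at 500 CPM in granule-like and 297 CPM in immature neurons, a log2 ratio of 0.75 that became 1.09, past the line, when TMM scaling, with a common shift of -0.34, was used. Immature nuclei had a median of 1846 UMIs and granule-like nuclei 6640, and the part of this depth gap in the ratios was not tested. Microglia serve below as a rough measure of free RNA. Immature neurons had 62.1 CPM of CNTN3, 71.1 of CNTN4, 22.3 of CNTN6 and 48.8 of CNTNAP4. These lay close to or not far above the microglial 58.3, 71.0, 17.3 and 33.9 CPM. CNTN5 was at 302 CPM in immature neurons and 95.4 CPM in microglia. The part of free RNA in these calls was not tested. Of 30 measured partner genes, 7 were higher in granule-like neurons, led by TNR, a matrix ligand of contactins (744 CPM, and 191 CPM in immature neurons) and KCNAB2 (214 and 63.3 CPM). The 6 higher in immature neurons were led by CNTN2, the partner of CNTNAP2 (4.58 CPM in granule-like and 24.0 CPM in immature neurons), and TNC (7.62 and 27.9 CPM).

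Interneurons were divided into SST, PVALB-LHX6 and LAMP5-LHX6 classes, which share LHX6, and VIP and RELN-ADARB2 classes, which share ADARB2. Between these 2 branches no member was called, where 3.06% of all 9378 genes were higher in LHX6 interneurons and 3.55% in ADARB2 interneurons. The largest ratio was that of CNTN3, at 178 CPM in LHX6 and 105 CPM in ADARB2 interneurons (1.69-fold, higher in 8 of 8 libraries), and CNTNAP2 had the smallest, at 7126 CPM in LHX6 and 7179 CPM in ADARB2 interneurons. CNTN1 also leaned to LHX6 interneurons and CNTN5 to ADARB2 interneurons in 8 of 8 libraries, at 431 and 333 CPM for CNTN1 and 1088 and 1422 CPM for CNTN5. 1 of 28 measured partner genes was called, NOTCH2, higher in LHX6 interneurons (31.3 CPM, and 8.06 CPM in ADARB2 interneurons).

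SST interneurons had more CNTN3 and less CNTNAP4 than the other inhibitory neurons. They were called for 1 of 8 members in each direction, where 2.53% of all 9344 genes were higher in SST interneurons and 4.53% in the others. CNTN3 was at 224 to 340 CPM by library in SST interneurons (274 CPM in the sum) and at 104 CPM in the others, a 2.62-fold excess (2.50 to 2.76) that every library showed. CNTNAP4 was at 169 to 234 CPM in SST interneurons (219 CPM in the sum) and at 807 CPM in the others, 3.68-fold higher in the others (3.52 to 3.84). No library of the SST class reached the lowest library of any other interneuron class, 444 CPM in VIP interneurons. Of 28 measured partner genes 3 were called: NOTCH2 was higher in SST interneurons (47.3 CPM, and 12.5 CPM in the others), and KCNAB1 (154 and 596 CPM) and TNR (133 and 412 CPM) were higher in the others.

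PVALB-LHX6 interneurons had no member called against the other inhibitory neurons, where 2.64% of all 9363 genes were higher in them and 4.49% in the others. CNTNAP4 (957 CPM, and 577 CPM in the others, 1.66-fold), CNTNAP5 (1269 and 811 CPM, 1.56-fold), CNTN4 (555 and 373 CPM, 1.49-fold) and CNTNAP2 (9519 and 6460 CPM, 1.47-fold) each leaned to PVALB-LHX6 interneurons in 8 of 8 libraries. The class held 2 unlike clusters. Cluster 42, with 281 nuclei led by PLEKHD1, CHRNA5 and ADAMTS5, had 1466 CPM of CNTN4, 3045 CPM of CNTN5, 1719 CPM of CNTNAP4 and 2680 CPM of CNTNAP5. Cluster 18, with 1082 nuclei led by POSTN, EYS and LHX6, had 322, 943, 762 and 908 CPM of the same genes. All 8 libraries fed both clusters. For CNTN4, CNTN5 and CNTNAP4, cluster 42 had the highest level of all 46 clusters. Of 28 measured partner genes, KCNAB1 was higher in PVALB-LHX6 interneurons (870 CPM, and 376 CPM in the others) and NCAM2, a neural cell adhesion molecule, was higher in the others (617 and 1658 CPM).

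**Figure D4:**
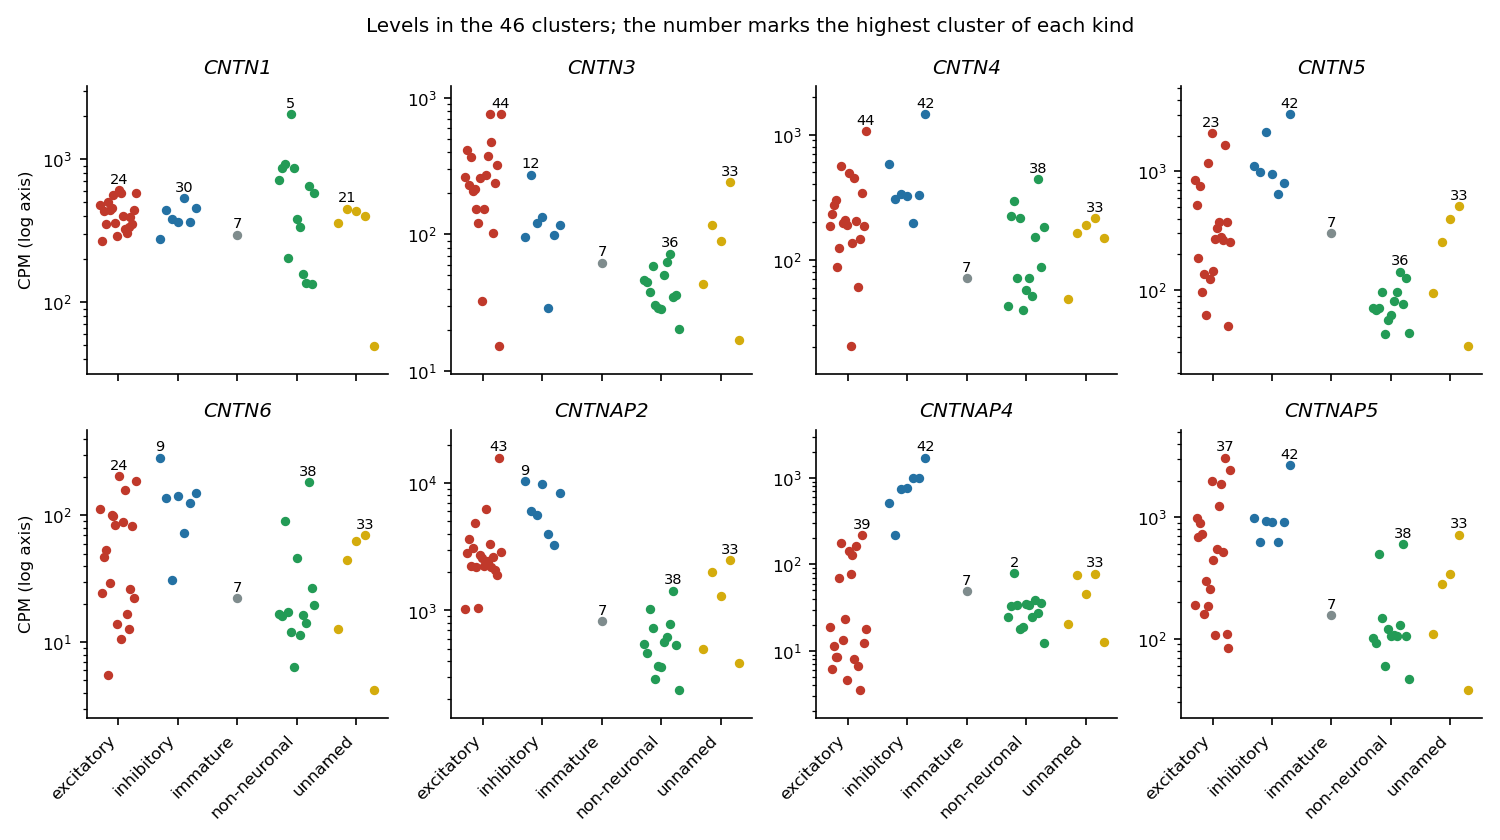
Level in CPM (log axes) of each gene in the 46 clusters, with 1 point per cluster grouped by kind and the number of the highest cluster of each kind. Inhibitory cluster 42 is the highest of all clusters for CNTN4, CNTN5 and CNTNAP4, and excitatory cluster 43 for CNTNAP2.

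LAMP5-LHX6 interneurons, 608 nuclei of 1 cluster and compared in 5 libraries, had the most CNTNAP4 and little CNTN3. No member was called higher in them, where 2.65% of all 9404 genes were, and 3 of 8 were higher in the other inhibitory neurons, where 4.26% were. CNTN3 was at 15.6 to 44.7 CPM in the 5 libraries (median 24.6; 28.8 CPM in the sum), and at 157 CPM in the other inhibitory neurons, 5.45-fold higher in the others (4.49 to 6.67). This is the lowest CNTN3 level of the neuron classes. CNTN4 (196 CPM, and 434 CPM in the others) and CNTN6 (73.0 and 150 CPM) were 2.21-fold and 2.06-fold higher in the others. The call of CNTN6 ended when library 4 was left out (log2 ratio -0.98), and that of CNTN4 with at least 1000 genes per nucleus (-0.96). CNTN5 (649 and 1291 CPM) and CNTNAP2 (4003 and 7448 CPM) stood just under the line, and the log2 ratio of CNTN5 was 0.13 with at least 1000 genes per nucleus. CNTNAP4 was at 1003 CPM in LAMP5-LHX6 interneurons and 630 CPM in the others (1.59-fold, higher in 5 of 5 libraries). Of 28 measured partner genes, TNR (834 CPM, and 297 CPM in the others) and MPDZ, a scaffold protein (328 and 163 CPM), were higher in LAMP5-LHX6 interneurons, and NOTCH2 (6.31 and 22.4 CPM) and PTPRZ1 (45.8 and 95.8 CPM) were higher in the others.

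VIP interneurons had the most CNTN6. 1 of 8 members was higher in them, where 3.1% of all 9414 genes were, and none was higher in the other inhibitory neurons, where 3.8% were. CNTN6 was at 227 to 370 CPM in VIP interneurons by library (median 269), and at 110 CPM in the sum of the others, a 2.59-fold excess (2.46 to 2.73) seen in 8 of 8 libraries. The call was lost in 4 settings. With at least 1000 genes per nucleus, with no doublets removed, at Leiden resolution 0.5 and with the listed genes kept for clustering, no separate RELN-ADARB2 class was named and the log2 ratio of CNTN6 was 0.75 to 0.88 in place of 1.37. CNTN4 in VIP interneurons ran from 341 to 765 CPM by library (median 548), with each of libraries 5 to 8, at 631 CPM or more, above each of libraries 1 to 4. It was higher than in the other inhibitory neurons in all 8 (587 CPM, and 373 CPM in the others, 1.58-fold). No partner gene was higher in VIP interneurons and 4 of 28 were higher in the others. CHL1, an L1-family adhesion protein, stood at 216 CPM in VIP interneurons and 507 CPM in the others, and NOTCH2 was also among the 4 (9.68 and 23.7 CPM).

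RELN-ADARB2 interneurons had the most CNTN5 and the least CNTN6 among interneurons in the sum. CNTN5 was above the PVALB-LHX6 level in 7 of 8 libraries, and CNTN6 was below the LAMP5-LHX6 level in 3 of 5. No member was called higher in them, where 2.07% of all 9324 genes were, and 1 of 8 was higher in the other inhibitory neurons, where 3.14% were. CNTN6 was at 46.1 to 84.5 CPM by library and at 65.4 CPM in the sum, and at 170 CPM in the others, 2.60-fold higher in the others (2.40 to 2.82). CNTN5 was at 1522 to 2020 CPM by library (1665 CPM in the sum) and at 1092 CPM in the others, 1.52-fold higher in 8 of 8 libraries. Its 2 clusters differed for both genes. Cluster 15, led by NMBR, RELN and NDNF, had 2160 CPM of CNTN5 and 31.1 CPM of CNTN6, and cluster 34, led by HTR3A, FREM2 and CNR1, had 803 and 125 CPM. NOTCH2 was the 1 partner gene of 28 called, higher in the others (6.83 and 25.8 CPM).

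Among non-neuronal cells the members were unequal. In the sum, CNTN1 was high in oligodendrocytes, their precursors and ependymal cells. Of the non-neuronal classes, oligodendrocyte precursors had the most CNTN4, CNTN6, CNTNAP2 and CNTNAP5 in the sum. The ependymal level of CNTN1 was 848 to 1040 CPM in libraries 1 to 4 and 373 to 484 CPM in libraries 5 to 8. Granule-like neurons had 548 to 584 CPM of CNTN1 in libraries 5 to 8. Microglia give a rough measure of free RNA, since these genes are not known as microglial genes. Their median depth, 1584 UMIs, was the lowest of the classes, and the measure is not corrected for depth. The level there was 202 CPM for CNTN1, 58.3 for CNTN3, 71.0 for CNTN4, 95.4 for CNTN5, 17.3 for CNTN6, 728 for CNTNAP2, 33.9 for CNTNAP4 and 147 for CNTNAP5. In the summed libraries CNTN3 and CNTN5 did not exceed the microglial level in any glial or ependymal class. By library the order could turn, as in library 5, where CNTN5 was at 107 CPM in oligodendrocytes and 77.8 CPM in microglia.

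Mature oligodendrocytes were set against their precursors. No member was called higher in oligodendrocytes, where 7.98% of all 9583 genes were, and 3 of 8 were higher in precursors, where 13.1% were. CNTN6 was at 14.0 CPM in oligodendrocytes, under the microglial level, and at 99.1 CPM in precursors, 7.06-fold higher in precursors (6.15 to 8.13). CNTNAP5 was at 69.5 to 128 CPM in oligodendrocytes (median 91.2) and 477 to 652 CPM in precursors (median 535), 6.67-fold higher in precursors (6.28 to 7.08), and CNTNAP2 was 2.85-fold higher in precursors (374 CPM in oligodendrocytes, 1068 CPM in precursors). All 3 held in 8 of 8 libraries. Newly formed oligodendrocytes, the stage between, had 38.6 CPM of CNTN6, 88.1 CPM of CNTNAP5 and 322 CPM of CNTNAP2. The summed CNTNAP5 and CNTNAP2 levels of these and of mature oligodendrocytes (76.1 and 374 CPM) were under the microglial 147 and 728 CPM.

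CNTN1, which takes part in axon and glia contact, went the other way without a call. It was at 969 to 1506 CPM in oligodendrocytes (median 1346) and 619 to 1005 CPM in precursors (median 747), higher in oligodendrocytes in 8 of 8 libraries (1.66-fold in the sum, 1.62 to 1.70). Newly formed oligodendrocytes had 439 CPM, less than either. Oligodendrocyte cluster 5, led by OPALIN and CD22, had 2079 CPM of CNTN1 and cluster 1, led by ANLN and KCNJ2, had 867 CPM. Of 31 measured partner genes, 8 were higher in oligodendrocytes and 11 in precursors. CNTN2, another contactin, was 11.3-fold higher in oligodendrocytes, where it stood at 397 CPM, and GPR37 was 12.4-fold higher (166 and 13.4 CPM). TNR (74.4 CPM in oligodendrocytes, 3933 CPM in precursors) and PTPRZ1 (91.4 and 2693 CPM), both partners of CNTN1, were higher in precursors. With TMM scaling the common shift of all genes was -0.14.

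**Figure D5:**
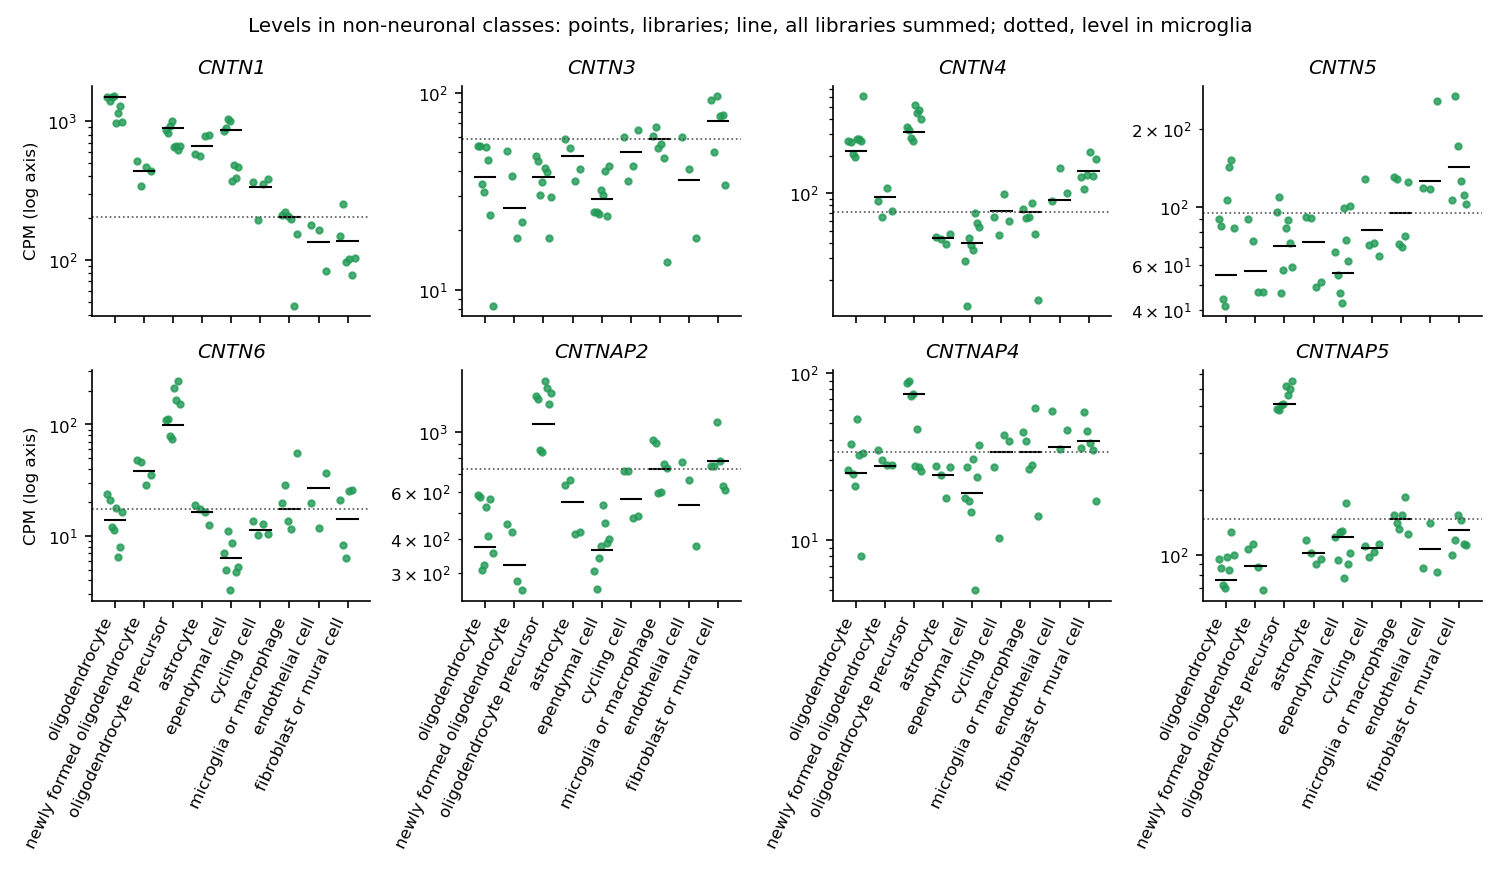
Level in CPM (log axes) of each gene in 9 non-neuronal classes, with 1 point per library holding at least 50 nuclei of the class, a line for the summed libraries and a dotted line at the microglial level. Oligodendrocyte precursors lie above the dotted line for CNTN1, CNTN4, CNTN6, CNTNAP2 and CNTNAP5 in every library shown.

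Against all other non-neuronal nuclei, oligodendrocyte precursors were higher for 4 of 8 members, where 5.59% of all 10187 genes were, and lower for none, where 12.5% of genes were higher in the other nuclei. The 4 were CNTN6 (99.1 CPM, and 17.3 CPM in the others, 5.73-fold), CNTNAP5 (507 and 97.3 CPM, 5.21-fold), CNTN4 (311 and 124 CPM, 2.51-fold) and CNTNAP2 (1068 and 464 CPM, 2.30-fold). CNTNAP4 was 2.83-fold higher in the sum (74.7 and 26.4 CPM) but only in 6 of 8 libraries. Its precursor level was 87.4, 89.8, 73.1 and 75.5 CPM in libraries 1 to 4 and 27.7, 46.1, 27.3 and 25.8 CPM in libraries 5 to 8. Precursors of libraries 1 to 4 lay in cluster 2 and those of libraries 5 to 8 in cluster 38. TNR (3933 and 603 CPM) and CASK, a membrane scaffold protein (1178 and 234 CPM), were the leading partner genes in precursors, and TNC (14.9 and 251 CPM) and GPR37 (13.4 and 75.0 CPM) those in the other nuclei.

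Astrocytes, compared in libraries 1 to 4, had 2 of 8 members higher in the other non-neuronal nuclei, where 13.3% of all 10309 genes were, and none higher in astrocytes, where 9.46% were. CNTN4 was at 44.8, 43.0, 39.1 and 46.9 CPM in the astrocytes of these libraries. In the others, summed over all 8 libraries, it was at 186 CPM (4.28-fold higher than in the summed astrocytes, 3.92 to 4.70). CNTN6 was at 16.6 CPM in astrocytes and 35.6 CPM in the others (2.15-fold higher in the others, 1.85 to 2.50), a call that ended when both sides were taken from libraries 1 to 4 alone (log2 ratio -0.98). Both astrocyte values lie under the microglial level. CNTN1 was at 664 CPM in astrocytes, above the microglial level in each of libraries 1 to 4. Its level was 717 CPM in astrocyte cluster 0. In cluster 35, 487 nuclei, it was 158 CPM, under the microglial 202 CPM. The astrocyte-marker cluster of libraries 5 to 8, cluster 3 with 3218 nuclei, stayed unnamed because its UMI counts were low for its libraries. It had 356 CPM of CNTN1, 48.8 CPM of CNTN4 and 12.8 CPM of CNTN6. Of 31 measured partner genes, 5 were higher in astrocytes and 10 in the others. TNC (887 CPM in astrocytes, 35.4 CPM in the others) and CHL1 (669 and 150 CPM) were higher in astrocytes, and APLP1 (1.38 and 28.8 CPM) and CNTN2 (13.0 and 184 CPM) in the others.

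The share of nuclei with at least 1 UMI separates a broad low level from a high level in few nuclei. Nuclei were thinned to 1000 UMIs each and shallower ones left out (0 to 6 nuclei in the neuron classes named here, 93 of 5917 oligodendrocytes, 48 of 3651 precursors and 269 of 2949 microglia), since median depth ran from 1584 UMIs in microglia to 10052 in pyramidal-like neurons. CNTNAP4 was seen in 54.6% of thinned LAMP5-LHX6 nuclei (50.6 to 58.6), 14.4% of SST nuclei, 0.979% of pyramidal-like nuclei and 3.25% of microglia. Unthinned, these shares were 89.6, 34.8, 8.81 and 5.29%, so the pyramidal-like share was under the microglial one only after thinning. Thinning does not equalise the part of free RNA in shallow and deep nuclei, and that part was not tested. CNTN6 was seen in 23.9% of VIP nuclei, 8.69% of oligodendrocyte precursors and 1.64% of microglia (57.5, 18.8 and 2.85% unthinned). CNTN5 was seen in 69.3% of RELN-ADARB2 nuclei, 57.0% of granule-like nuclei, 7.03% of FOXP2 excitatory nuclei and 8.17% of microglia. By library, the CNTN5 level of FOXP2 excitatory neurons was 199 and 168 CPM in libraries 3 and 4, where microglia had 72.1 and 70.1 CPM, and 56.7 and 70.3 CPM in libraries 5 and 7, where microglia had 77.8 and 125 CPM. Unthinned, it was 93.5% in RELN-ADARB2, 39.6% in FOXP2 excitatory and 14.0% in microglial nuclei. CNTNAP2 reached 48.7% of thinned microglia, so its presence in a nucleus says little about expression, while its share in VIP nuclei was 96.3% (64.9 and 99.6% unthinned).

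Across the 19 classes the members' log2 levels rose and fell together to unequal degrees, given here as a description, since classes share libraries, depth and free RNA. CNTNAP2 and CNTNAP5 had the highest correlation of any pair (Pearson r = 0.95). Each was the gene most like the other among genes that reached 10 CPM in a class. Genes known only by an ENSMMUG or LOC identifier were left out of this ranking. CNTN4 and CNTN6 followed each other at r = 0.85. CNTN1 was close to uncorrelated with the other 7, with r from -0.23 to 0.08. In the RefSeq order of coding genes (assembly T2T-MMU8v2.0), CNTN3, CHL1 and CNTN6 are consecutive and CNTN4 follows after 1 other coding locus. CNTN3 and CNTN4, at the ends of that run, had r = 0.53.

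Outside the family and within the same ranking, the genes most like CNTN3 were CDH8, RYR2 and GDA (r = 0.92 to 0.96). Those most like CNTN5 were ZMAT4, GABRA4 and KCNC1 (0.92 to 0.93), and those most like CNTNAP4 were PTCHD4, ZNF385D and ACTR5 (0.91 to 0.93). CNTNAP2 was also close to ABCG4 and CLSTN3, and CNTNAP5 to RAB27B and ABCG4. CNTN4 and CNTN6 shared ZFR2 among their closest genes, with RPS6KL1 for CNTN4 and SYT13 for CNTN6 (all 0.85). CNTN1 had the weakest matches, ST3GAL5, L3MBTL2 and PUS7L (0.83 to 0.85). KCNC1 is also a marker used to name the PVALB-LHX6 class.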

How the data were processed

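Single nuclei of 2 groups were measured, 4 samples from the sevoflurane pool and 4 from the control pool. The authors deposited raw UMI counts, 1 matrix for all libraries, written by Cell Ranger 3.1.0 per the file headers. CASAVA 1.8, Cell Ranger and Seurat appear in the submitters' processing notes, with no roles. Coordinates are left out because no source used here names the genome build. Of the columns with values per sample, 0 were left out.

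The members and lists were chosen with earlier results of these data known. Barcodes under 500 UMIs or 300 genes were dropped. Simulated doublets were scored over 50 neighbours and 0.8% per 1000 nuclei were removed (4.18 to 7.75% per library), which left 5015 to 8931 nuclei per library. After scaling each nucleus to 10000 counts and taking logs, 2000 variable genes, without the members and partner genes, gave 30 principal components and a graph of 20 neighbours, clustered by Leiden at resolution 1.0 with no correction between libraries (Python 3.11.15, numpy 2.4.6, scipy 1.17.1, pandas 2.3.3, scikit-learn 1.9.0, igraph 0.11.9, leidenalg 0.10.2, matplotlib 3.10.9).

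Clusters were named from fixed markers, each scaled from 0 to 1 over clusters as log2(CPM + 1). A type was given where 3 of its markers passed 0.5 and its mean led every other type by 0.1 (0.05 for subtypes, which also needed an own marker among 10 leading genes). Types of the oligodendrocyte lineage needed no such lead over each other: newly formed oligodendrocyte cluster 19 scored 0.901, with precursors at 0.885. Clusters under 50 nuclei stayed unnamed, as did those without an own marker among the leading genes that had a doublet score of at least 0.5 or low UMI counts. Fibroblast or mural cluster 36 (score 0.50) and endothelial cluster 40 (0.54) kept their names through such markers. The scoring, though not the markers, was decided with the data in view. Genes with 10 CPM in either class were measured. All 8 members are named, and partner genes are given for each comparison and direction as the called ones with the largest fold, 2 at most. Intervals are exact 95% intervals (Poisson, conditional binomial, Clopper-Pearson). They cover counting error only, at 35806547 to 47007082 UMIs per library. The calling procedure was tested on simulated data. The simulated libraries of a class differed by counting error only. That test therefore cannot show how the rule acts where real libraries differ, as they do here. Alternatives changed the scaling, the weighting of libraries, the filters on genes and nuclei, doublet removal, clustering, free RNA and the libraries used.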

Additional observations from a re-analysis of the deposited data

Results flagged for a closer look

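In 6 cases 1 library lay far from the others in its log2 ratio between classes. About 1 in 20 such sets would be picked out by chance, and 104 gene and comparison pairs were looked at. CNTN4 between excitatory and inhibitory neurons was -0.52 in library 3 and -0.96 to -0.78 in the others. CNTNAP2 between LAMP5-LHX6 and the other inhibitory neurons was -0.47 in library 1 and -1.21 to -1.04 in the others. Between oligodendrocytes and their precursors, library 8 stood apart for CNTN3, at -1.83 with the others at -0.18 to 0.40, and for CNTN4, at 0.59 with the others at -0.89 to -0.32. Library 8 held 18 nuclei of oligodendrocyte cluster 5 and 48 of cluster 1. Between astrocytes and the other non-neuronal nuclei, CNTN4 was -1.82 in library 4 and -2.26 to -2.19 in the others, and CNTNAP5 was -1.02 in library 2 and -0.88 to -0.87 in the others.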

How the results depend on the processing

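No paired analysis was possible because no source used here ties the barcode suffixes to the sevoflurane and control samples, whose replicate numbers are shared. Classes were compared within each library. Over 429 results and 23 alternative settings (4911 values), no called ratio changed sign. The log2 ratio of genes without a call changed sign in 67 values of 21 gene and comparison pairs. Among these, CNTN5 in LAMP5-LHX6 interneurons was 0.13 in place of -0.99 with at least 1000 genes per nucleus, CNTNAP4 in VIP interneurons was 0.14 to 0.26 in place of -0.45 in the 4 settings named next, and in granule-like over pyramidal-like neurons of libraries 5 to 8 alone CNTN3 was -0.90 in place of 0.03 and CNTN4 -0.47 in place of 0.11. The count of members higher in VIP interneurons was 0 in place of 1 with at least 1000 genes per nucleus, with no doublets removed, at Leiden resolution 0.5 and with the listed genes kept for clustering. The count in the other non-neuronal nuclei against astrocytes was 1 in place of 2 in libraries 1 to 4 alone. Counting the low-UMI astrocyte-marker cluster as astrocytes, and taking each set of 4 libraries alone, were chosen after seeing the data. With the low-UMI cluster, CNTN1 lost its call in non-neuronal nuclei (log2 ratio -1.03, past 2-fold in the sum but not of 1 sign in all libraries). CNTN6 gained a call in neurons in 6 settings (1.21 to 1.44), among them TMM scaling and leaving out library 7 (1.25). Against pyramidal-like neurons, CNTN4 and CNTNAP4 gained a call in granule-like neurons with no doublets removed (1.13 and 1.12) and in libraries 1 to 4 alone (1.02 and 1.13). In LAMP5-LHX6 interneurons, CNTN6 lost its call with equal weights (-0.96) and in libraries 5 to 8 alone (-0.91), CNTN4 lost it in libraries 1 to 4 alone (-0.90), and CNTN5 passed the line in 5 settings, without library 3 (-1.06) or library 7 among them. Further calls were gained there by CNTNAP2 (-1.02 with at least 1000 genes, -1.11 in libraries 5 to 8 alone) and CNTNAP5 (-1.13 in libraries 1 to 4 alone), and by CNTNAP4 in precursors against oligodendrocytes (-1.67) and against other non-neuronal nuclei (1.60) in libraries 1 to 4 alone. With no CPM minimum the genes called in all numbered 2108 in place of 1189 for excitatory and inhibitory neurons, 3858 in place of 2551 for granule-like and immature neurons, 1278 in place of 650 for LAMP5-LHX6 interneurons and 3825 in place of 2341 for astrocytes. Oligodendrocyte precursors had 2994 in place of 1845 in libraries 5 to 8 alone. The comparisons with a RELN-ADARB2 class or an ADARB2 branch were not run in the 4 settings that named no such class, nor those of LAMP5-LHX6 interneurons in 3 of them. The causes were not tested.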
